A study of Mus musculus with 17 samples.

Results

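The 8 transcripts that carry small nucleolar RNA (snoRNA) genes in their introns were followed across the 4 groups of the study: 1110038B12Rik, Gas5, Snhg1, Snhg5, Snhg8, Snhg12, Snhg15 and Snhg17. They are 8 of the 55421 genes in the deposited table, and each matched 1 row by name. The set was chosen by the values of 1110038B12Rik in these same libraries, which were higher after bleomycin in Ephb4 control mice and lower in Ephb4 CKO mice. The comparisons of bleomycin with PBS in control mice and of CKO with control mice after bleomycin are therefore given as a description. Counts of calls in them are printed beside the share of all genes and support nothing about the set. Transcript levels of the 8 genes were higher after bleomycin in control mice by a median of 0.56 on the log2 scale, and lower in CKO than in control mice after bleomycin by a median log2 fold change of -0.70. The summed level of fibroblast marker genes had its highest median in control bleomycin as well, and its values are given with those comparisons.

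Ephb4 encodes a receptor tyrosine kinase that binds ephrin-B2. All 17 mice were Ephb4 f/f with Col1a2-CreERT2, a tamoxifen-inducible Cre recombinase driven by a collagen gene promoter that is active in fibroblasts. Ephb4 CKO mice received 4-hydroxytamoxifen at 1 mg/day for 5 days from 4 weeks of age, and Ephb4 control mice received corn oil, so the controls carried the same alleles without the drug. At 6 weeks the mice were given bleomycin at 1.2 U/kg, a DNA-damaging drug used to model lung fibrosis, or PBS. Lung cells were taken 14 days later and grown in culture through 1 passage, with no treatment in the dish, and total RNA was sequenced from 1 library per mouse. The groups were control PBS (n = 4), control bleomycin (n = 4), CKO PBS (n = 5) and CKO bleomycin (n = 4).

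snoRNAs guide chemical modification of ribosomal RNA and other small RNAs. Most mammalian snoRNAs are cut out of the introns of longer transcripts, so that splicing of 1 precursor yields both a mature snoRNA and a spliced host RNA. Host genes of the Snhg kind encode no long protein. Many of their spliced RNAs are read by ribosomes and removed by nonsense-mediated decay, and many of their transcripts begin with a 5′ terminal oligopyrimidine (TOP) tract, a feature shared with ribosomal protein mRNAs whose translation follows growth signals through mTOR. Gas5 is named for its accumulation in growth-arrested cells, 1110038B12Rik is the mouse counterpart of human SNHG32, and Snhg1 is also known as the U22 (Snord22) host gene.

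In GENCODE M21 (GRCm38) the plus strand held Gas5 (ENSMUSG00000053332) at chr1:161034422-161038539, Snhg1 (ENSMUSG00000108414) at chr19:8723475-8726443 and Snhg12 (ENSMUSG00000086290) at chr4:132308623-132311024. The minus strand held 1110038B12Rik (ENSMUSG00000092203) at chr17:34950238-34952471, Snhg5 (ENSMUSG00000097195) at chr9:88521050-88522929, Snhg8 (ENSMUSG00000104960) at chr3:123507552-123508404, Snhg15 (ENSMUSG00000085156) at chr11:6525591-6528760 and Snhg17 (ENSMUSG00000085385) at chr2:158353700-158361580. Snhg12 is annotated as a lincRNA and the rest as processed transcripts. In this annotation, 32 snoRNA genes lay wholly within the 8 hosts on the same strand. Gas5 held 10, Snhg1 held 8, Snhg12 held 5, Snhg17 held 3, 1110038B12Rik and Snhg5 held 2 each, and Snhg8 and Snhg15 held 1 each. All 32 fell inside an intron of the annotated transcript with the most exons, and they filled 30 of its 44 introns over the 8 genes, since 2 snoRNAs (Snord80 in Gas5 and Snora16a in Snhg12) are each annotated as 2 overlapping genes. One entry in Gas5 carries the name Mir5117 but is annotated as a snoRNA. Spliced lengths of these transcripts ran from 448 bases (Snhg8) to 1046 bases (Snhg17).

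**Figure D1:**
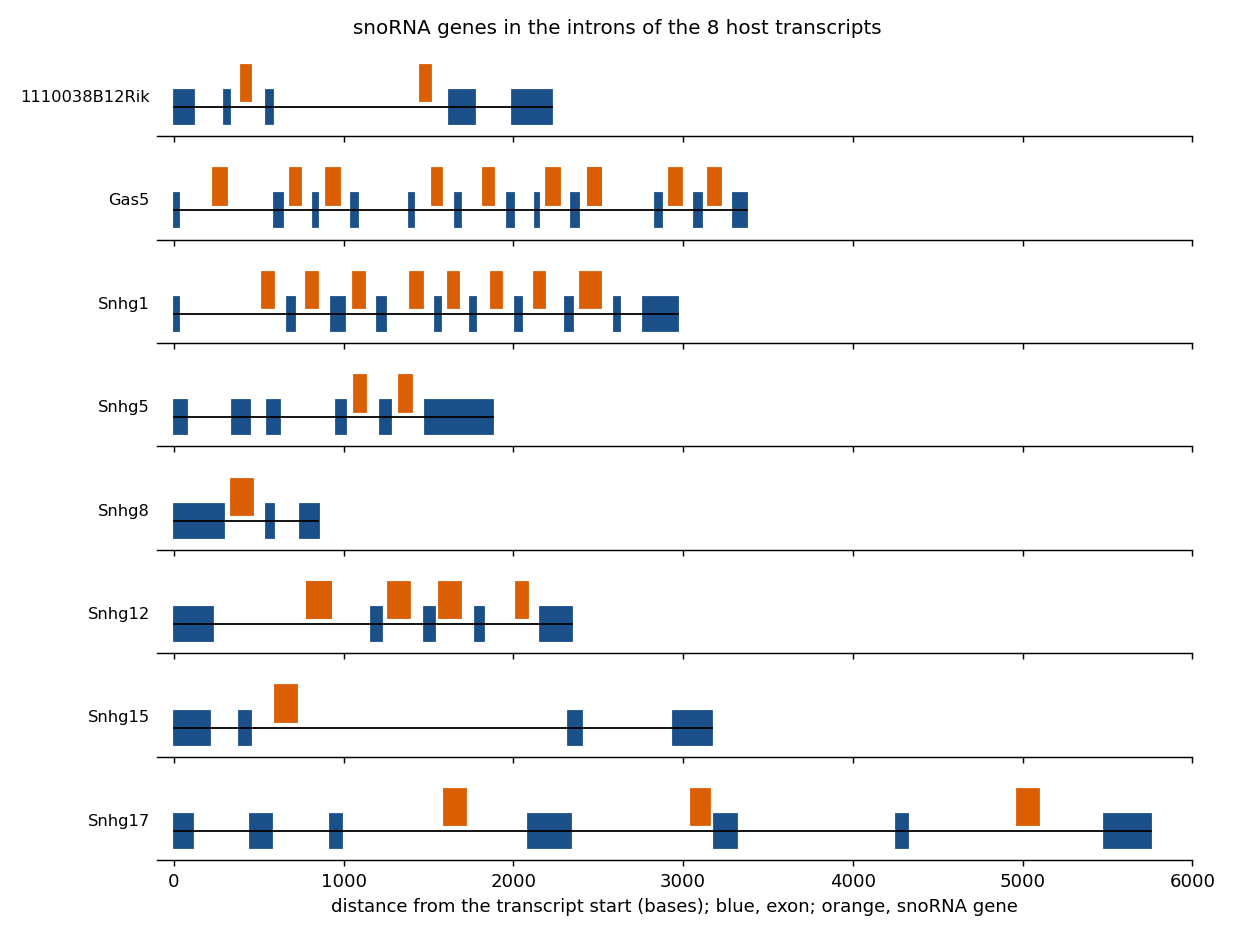
Exons (blue) and snoRNA genes (orange, raised) of the 8 hosts along the transcript with the most exons, against distance from its start in bases. Each orange box sits between exons, with 1 snoRNA per occupied intron except where overlapping entries are drawn on top of each other.

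The starts of the 8 hosts are shown because a TOP tract would lie there. The windows below are from RefSeq (GRCm38.p6) and run from 20 bases before the annotated first base of the transcript through 30 bases from it, 5′ to 3′. Capitals mark a C followed by at least 4 pyrimidines (C or T) where that C lies within 5 bases of the first base, searched on the transcribed strand only. Where a gene has more than 1 RefSeq start, the first with such a tract is shown.
1110038B12Rik (chr17:34952442-34952491, minus strand): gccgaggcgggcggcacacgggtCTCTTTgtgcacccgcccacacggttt
Gas5 (chr1:161035146-161035195, plus strand): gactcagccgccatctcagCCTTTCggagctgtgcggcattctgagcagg
Snhg1 (chr19:8723467-8723516, plus strand): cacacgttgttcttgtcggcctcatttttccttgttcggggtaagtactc
Snhg5 (chr9:88522868-88522917, minus strand): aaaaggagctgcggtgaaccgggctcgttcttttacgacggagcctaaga
Snhg8 (chr3:123508307-123508356, minus strand): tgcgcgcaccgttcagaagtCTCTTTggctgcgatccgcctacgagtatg
Snhg12 (chr4:132308658-132308707, plus strand): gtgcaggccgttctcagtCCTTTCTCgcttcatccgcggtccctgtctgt
Snhg15 (chr11:6528731-6528780, minus strand): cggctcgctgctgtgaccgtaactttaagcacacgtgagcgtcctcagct
Snhg17 (chr2:158361493-158361542, minus strand): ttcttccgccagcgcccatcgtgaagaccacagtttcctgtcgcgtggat

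By this search 1110038B12Rik, Gas5, Snhg8 and Snhg12 held a tract and Snhg1, Snhg5, Snhg15 and Snhg17 did not. The tract was 6 bases long in 1110038B12Rik, Gas5 and Snhg8 and 8 bases in Snhg12. Over all genes with a RefSeq start, 5718 of 27025 (21.2%) held one, against 29 of 61 ribosomal protein genes (47.5%) and 5 of 12 other noncoding snoRNA hosts. With the C required at an annotated first base itself, over all RefSeq starts of a gene, 3 of the 8 hosts (1110038B12Rik, Gas5 and Snhg8) and 3.01% of all genes held one. So did 14 of 61 ribosomal protein genes (23.0%) and 1 of 12 other noncoding snoRNA hosts. A match describes these letters only, and no match says only that no such C lies within 5 bases of the annotated first base. The windows of Snhg5 and Snhg17 hold such letters farther from it.

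The snoRNAs carried by the leading hosts are shown with their box motifs. C/D box snoRNAs, which guide ribose methylation, hold a C box near the 5′ end and a D box near the 3′ end. H/ACA snoRNAs, which guide pseudouridylation, hold an ACA a few bases before the 3′ end. Sequences are from GENCODE M21 (GRCm38), with capitals at TGATGA within the first 15 bases and at the last CTGA within the last 15 bases, or at an ACA followed by exactly 3 bases.
Snord52 in 1110038B12Rik (chr17:34950952-34951017, minus strand): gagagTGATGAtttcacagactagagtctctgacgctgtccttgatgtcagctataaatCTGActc
Gm25744 in 1110038B12Rik (chr17:34952013-34952075, minus strand): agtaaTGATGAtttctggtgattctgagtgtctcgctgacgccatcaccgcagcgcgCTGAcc
Snord22 in Snhg1 (chr19:8725866-8725991, plus strand): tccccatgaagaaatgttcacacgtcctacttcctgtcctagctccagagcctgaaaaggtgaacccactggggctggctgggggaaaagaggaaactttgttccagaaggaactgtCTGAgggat
Snora44 in Snhg12 (chr4:132309941-132310069, plus strand): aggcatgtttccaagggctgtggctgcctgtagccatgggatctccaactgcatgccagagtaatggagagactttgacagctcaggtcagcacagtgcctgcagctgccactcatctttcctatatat

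Snord52 and Gm25744, the pair within 1110038B12Rik, both held TGATGA and CTGA. Snord22, in Snhg1, held CTGA alone, and Snora44, in Snhg12, held none of the searched motifs. Of the 32 hosted snoRNAs, 16 held both TGATGA and CTGA and 6 held the ACA, against 19.5% and 18.3% of the 1507 snoRNA genes of the annotation. Mir5117 in Gas5 held all of these motifs and is in both counts. The doubled entries of Snord80 and Snora16a are each counted, so these are counts of motifs and not of snoRNA classes.

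Total counts per library ran from 66540000 to 120550000. The 8 most abundant noncoding RNA genes took 18.1% to 35.2% of them. Ephb4 itself did not separate the groups: it ranged from 2.32 to 33.4 CPM (counts scaled to a common library size) in control PBS, 13.1 to 65.1 in control bleomycin, 4.01 to 23.6 in CKO PBS and 4.93 to 14.0 in CKO bleomycin. The libraries were labelled primary fibroblasts, but Lyz2, a macrophage and myeloid marker, exceeded Col1a1, a fibroblast collagen, in 16 of 17. The 14 fibroblast markers summed to 6087 to 13286 CPM in control bleomycin, 46.5 to 7965 in control PBS, 90.6 to 2357 in CKO PBS and 77.6 to 1981 in CKO bleomycin. Only Fbln1 and Postn among them were at 0 in any library. The 19 macrophage markers summed to 1451 to 20221 CPM in control bleomycin and to 10807 to 47134 in the other groups, with none at 0. Smooth muscle markers summed to 503 to 529 CPM in control bleomycin and 1.99 to 326 elsewhere, and over all 17 libraries endothelial markers ran from 52.7 to 324 CPM, epithelial from 26.7 to 2167, mesothelial from 2.31 to 602, neutrophil from 2.25 to 92.0 and lymphocyte from 0 to 28.6. Control PBS mouse 3 stood apart from its group with the highest fibroblast sum outside control bleomycin. In 3 libraries (control bleomycin mouse 2 and CKO bleomycin mice 1 and 2) sex-linked genes went against the labelled sex. Whether the group labels of these 3 libraries are right was not tested, so some results that use them are also given without them. Values not given without them may change as well. In these bulk samples, fewer cells of a type and less RNA per cell cannot be told apart.

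Levels were compared between the hosts as CPM per kilobase of exon, averaged over the 17 libraries. Exon length pooled all annotated transcripts of a gene, and for Snhg1, Snhg8 and Snhg12 it equalled the whole gene, introns included. For Snhg17 it was 7052 bases, against 1046 spliced bases in the transcript with the most exons. The order thus depends on annotated length. Gas5 was the most abundant at 18.6 ± 6.57 (SD, n = 17) and ranked first in 17 of 17 libraries. Snhg8 (10.9 ± 3.58), Snhg1 (8.17 ± 3.11), 1110038B12Rik (7.77 ± 4.33), Snhg5 (7.29 ± 4.11) and Snhg15 (6.33 ± 1.71) followed, and each neighbour in that order differed by less than its SD. Snhg12 (4.71 ± 1.59) and Snhg17 (1.84 ± 0.43) were lowest, the latter at percentile 13.4 of the genes kept. The median over the kept genes was 6.10 CPM per kilobase. Per kilobase of the longest annotated transcript, 1110038B12Rik reached 15.1 and ranked behind Gas5 (27.3) alone.

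All 8 hosts passed the filter of more than 10 CPM, before TMM scaling, in at least 2 libraries. Snhg8 and Snhg15 passed through control bleomycin: each exceeded 10 CPM in 4 of 4 libraries of that group and in only 1 library elsewhere, so their inclusion depended on the group where they were high. Gas5 exceeded it in 17 libraries, Snhg1 in 16, Snhg17 in 15, 1110038B12Rik in 9, and Snhg5 and Snhg12 in 7 each.

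Bleomycin was first compared with PBS in Ephb4 control mice, to ask what the injury changed in cells with intact Ephb4. 1110038B12Rik was at 12.6, 10.4, 16.7 and 6.77 CPM in the control PBS libraries and at 33.9, 25.8, 19.4 and 20.5 CPM in the control bleomycin libraries. The groups did not overlap, and mouse 1 of the bleomycin group was the highest of all 17. The mean was 11.6 ± 4.13 CPM (SD, n = 4) after PBS and 24.9 ± 6.60 CPM (n = 4) after bleomycin, a fitted log2 fold change of 1.10 ± 0.37 (SE). Fibroblast markers moved with it: the median of their summed level was 637 CPM after PBS and 10642 CPM after bleomycin, and with the fibroblast score as a covariate the change of 1110038B12Rik was 0.42 ± 0.40.

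Snhg12 was at 9.47, 9.76, 12.8 and 10.2 CPM after PBS and at 20.2, 17.9, 14.1 and 14.9 CPM after bleomycin. It was the other host whose groups did not overlap, with a log2 fold change of 0.67 ± 0.19. Gas5 was at 74.0, 48.6, 101.4 and 53.2 CPM after PBS and at 115.4, 97.6, 103.5 and 99.3 CPM after bleomycin. Its PBS libraries spread widely and its bleomycin libraries closely, and control PBS mouse 3, the fibroblast-rich library, lay among the bleomycin values. The log2 fold change was 0.58 ± 0.23.

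Snhg5, the host of Snord50a and Snord50b, was at 11.9, 10.9, 22.3 and 7.34 CPM after PBS and at 33.7, 19.6, 16.4 and 15.8 CPM after bleomycin. Here control PBS mouse 3 was above 3 of the bleomycin libraries, and the log2 fold change was 0.70 ± 0.30. Snhg8, the host of Snora24, had a log2 fold change of 0.53 ± 0.23, Snhg15, the host of Snora9, of 0.48 ± 0.26, Snhg1 of 0.44 ± 0.24 and Snhg17 of 0.30 ± 0.23. In each of these 4 hosts the groups overlapped. Single libraries set much of these sizes. Without control bleomycin mouse 1 the change was 0.23 ± 0.23 for Snhg1, 0.17 ± 0.23 for Snhg17, 0.43 ± 0.29 for Snhg5 and 0.34 ± 0.23 for Snhg8, with a median of 0.39 over the 8. Without control PBS mouse 3 it was 1.12 ± 0.27 for Snhg5.

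All 8 fold changes were above 0, with a median of 0.56 against -0.06 over the 10481 genes kept, of which 44.5% were above 0. No host was called at an adjusted p under 0.05 by edgeR's quasi-likelihood test, nor was any gene (0% of 10481). At an unadjusted p under 0.05, 5 hosts were higher, beside 6.28% of all genes that were higher and 7.98% that were lower. The 2 hosts with groups that did not overlap stand beside 5.72% of all genes. By DESeq2, 1 host (Snhg12) was among the 0.943% of 10392 genes called higher. These counts come from the comparison that chose the set and are read as nothing more. Without the 3 libraries against their sex label the value for 1110038B12Rik was 1.09 ± 0.35 and the median 0.61.

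**Figure D2:**
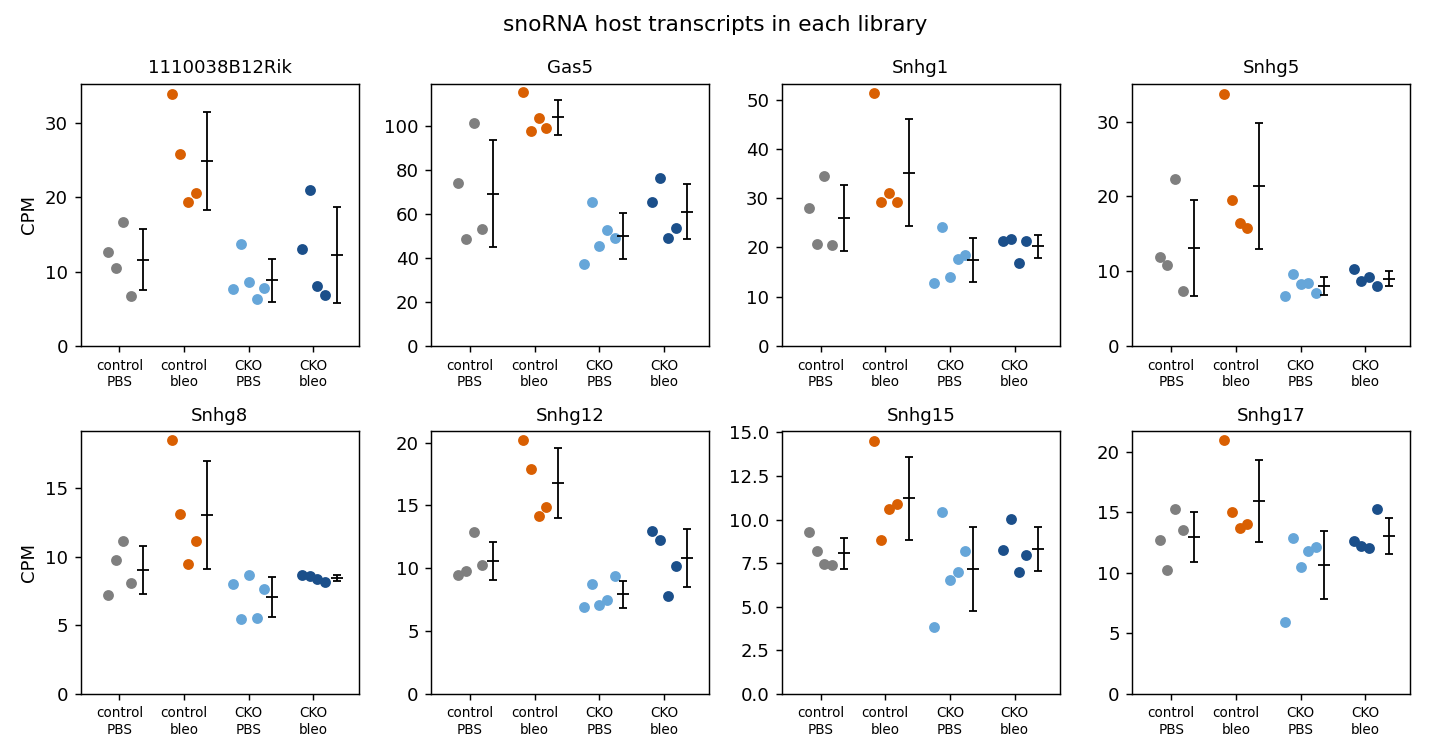
CPM of each host in each library (points, 1 per mouse) by group, with the group mean and SD at the right of each column of points and every axis starting at 0. For 1110038B12Rik the 4 control bleomycin libraries sit between 19.4 and 33.9 CPM, above all control PBS libraries, while 1 CKO bleomycin library reaches 21.0 CPM.

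CKO mice were then compared with control mice after bleomycin, to ask how that state differed in mice treated to delete Ephb4 in Col1a2-expressing cells. Every CKO mouse received 4-hydroxytamoxifen and no control mouse did, so drug and deletion cannot be told apart. 1110038B12Rik was at 13.1, 21.0, 8.14 and 6.82 CPM in the CKO bleomycin libraries, where mouse 2 lay within the control bleomycin range and the others below it. The mean was 12.3 ± 6.43 CPM (n = 4), and the log2 fold change against control bleomycin was -1.02 ± 0.36. The median summed level of fibroblast markers was 542 CPM in CKO bleomycin against 10642 CPM in control bleomycin, and with the fibroblast score as a covariate the difference was -0.47 ± 0.36. Snhg5 had the largest change of the 8: it was at 10.3, 8.68, 9.19 and 7.97 CPM, all below the lowest control bleomycin library, with a log2 fold change of -1.24 ± 0.31.

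Snhg1 was at 29.2 to 51.3 CPM in control bleomycin and at 21.3, 21.6, 16.7 and 21.3 CPM in CKO bleomycin, a log2 fold change of -0.80 ± 0.24. Gas5 was at 65.7, 76.6, 48.9 and 53.4 CPM in CKO bleomycin, below all 4 control libraries, with a log2 fold change of -0.77 ± 0.23. Snhg12 was at 12.9, 12.3, 7.79 and 10.2 CPM (log2 fold change -0.64 ± 0.19). Snhg8 was tightly grouped in CKO bleomycin at 8.64, 8.60, 8.39 and 8.16 CPM (log2 fold change -0.63 ± 0.23). Groups did not overlap for Gas5, Snhg1, Snhg5, Snhg8 and Snhg12, and overlapped for 1110038B12Rik, Snhg15 (-0.43 ± 0.26) and Snhg17 (-0.29 ± 0.23).

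The median of the 8 fold changes was -0.70 against 0.01 over all genes, and 8 of 8 were below 0 beside 49.3% of all genes. No host and no gene (0%) was called by edgeR at an adjusted p under 0.05. At the level of single tests 6 of the 8 hosts had an unadjusted p under 0.05, where 9.18% of all genes were lower and 11% higher. The 5 hosts that lay wholly below control stand beside 12.2% of all genes. Snhg8, one of the 5, was kept through its control bleomycin libraries, and without it and Snhg15 the count was 4 of 6. By DESeq2, 3 hosts (Gas5, Snhg5 and Snhg12) were among the 2.44% of genes called lower. These counts too are read as nothing more, since this comparison also chose the set, and it shares its control bleomycin libraries with the first, so a high value in those 4 libraries moves both. Without the 3 libraries against their sex label the value for 1110038B12Rik was -1.76 ± 0.44 and the median -0.96. Gas5 was then at -1.09 ± 0.33, Snhg12 at -0.91 ± 0.27 and Snhg17 at -0.29 ± 0.33. That setting leaves CKO bleomycin mice 3 and 4, whose sample titles hold a number of series 11 (its first digits), against control bleomycin mice of series 12. The labels do not say what the number stands for. Genotype and number series cannot be told apart in this setting. All 4 control and 2 of 4 CKO bleomycin mice belonged to number series 12. Within that series 1110038B12Rik was at -0.52 ± 0.37, Snhg12 at -0.39 ± 0.23 and the median at -0.52.

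**Figure D3:**
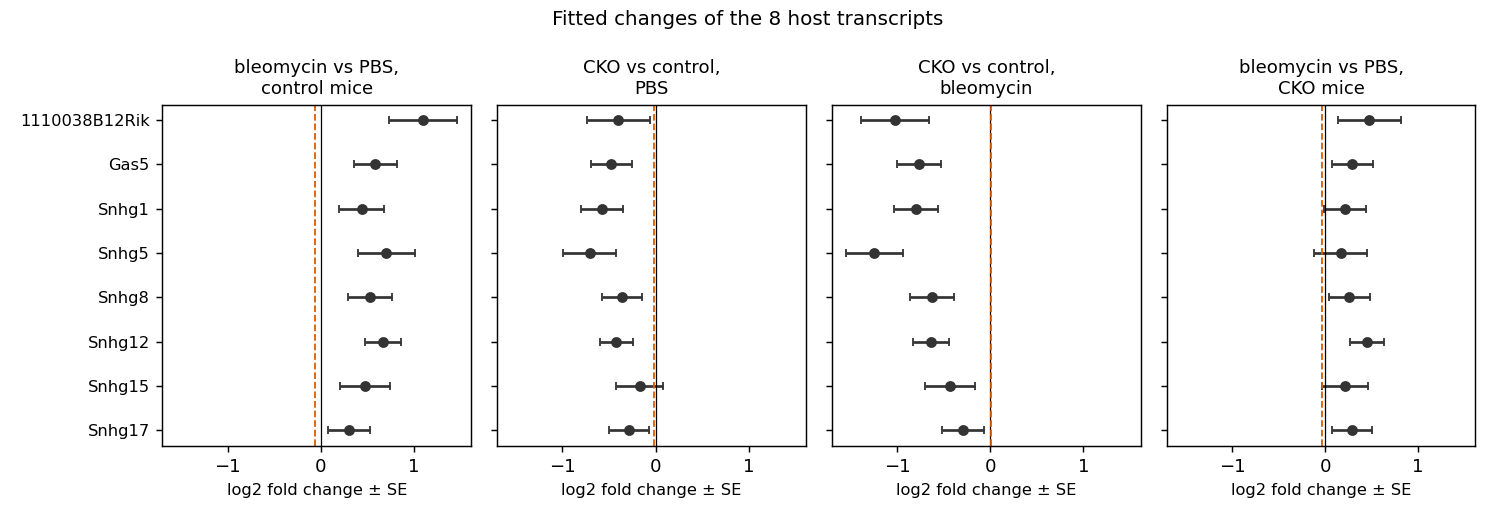
Fitted log2 fold change ± SE of each host in 4 comparisons, with the median of all 10481 genes as a dashed line and 0 as a solid line. All 8 points lie right of 0 for bleomycin versus PBS in both genotypes and left of 0 for CKO versus control in both treatments, and the SE bar reaches 0 for Snhg15 within PBS and for Snhg1, Snhg5 and Snhg15 within CKO mice.

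The comparison of CKO with control mice given PBS shares its control PBS libraries with the first comparison. The set was chosen for lower values in CKO mice without a limit to bleomycin, so this comparison is not independent of the choice either, and its counts are a description. In CKO PBS, 1110038B12Rik was at 7.70, 13.7, 8.56, 6.29 and 7.86 CPM, overlapping control PBS, with a log2 fold change of -0.40 ± 0.34. Snhg12 was at 6.89, 8.75, 7.09, 7.46 and 9.37 CPM, all below the lowest control PBS library at 9.47 CPM. Its log2 fold change was -0.42 ± 0.18 (edgeR adjusted p = 1.00, unadjusted p = 0.0360). It was the 1 host whose groups did not overlap, beside 0.219% of all genes.

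Snhg5 was at 6.75, 9.63, 8.27, 8.49 and 7.09 CPM (log2 fold change -0.71 ± 0.29). Snhg1 was at 12.7, 24.2, 14.1, 17.7 and 18.4 CPM (log2 fold change -0.58 ± 0.23). Gas5 was at 37.2, 65.4, 45.5, 52.6 and 48.9 CPM (log2 fold change -0.47 ± 0.22). In these 3 hosts the groups overlapped. Snhg8 (-0.36 ± 0.22), Snhg17 (-0.28 ± 0.21) and Snhg15 (-0.17 ± 0.25) had smaller fitted differences.

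By edgeR 0 of 8 hosts, and 0% of all genes, passed an adjusted p of 0.05 in this comparison, with an adjusted p of 1.00 for each host, and DESeq2 called 0 hosts. At an unadjusted p under 0.05, 4 hosts (Gas5, Snhg1, Snhg5 and Snhg12) were lower, beside 0.563% of all genes. The median of the 8 was -0.41 against -0.02 for all genes. The size rested in part on control PBS mouse 3: without that library the median was -0.22, Snhg5 moved to -0.31 ± 0.25 and 1110038B12Rik to -0.15 ± 0.38. With the fibroblast marker score as a covariate the median was -0.37.

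Bleomycin was compared with PBS within CKO mice as the last pair. For 1110038B12Rik the mean was 8.82 ± 2.83 CPM (n = 5) after PBS and 12.3 ± 6.43 CPM (n = 4) after bleomycin, with overlapping libraries and a log2 fold change of 0.48 ± 0.34 (edgeR adjusted p = 1.00). Snhg12 had a log2 fold change of 0.45 ± 0.18 (edgeR adjusted p = 1.00, unadjusted p = 0.0265). The other hosts had values from 0.17 ± 0.29 (Snhg5) to 0.29 ± 0.21 (Snhg17).

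The groups overlapped in all 8 hosts, where 0.0763% of all genes were wholly higher. No host and no gene (0%) passed the adjusted threshold by edgeR, DESeq2 called 0 hosts, and Snhg12 alone had an unadjusted p under 0.05, beside 0.248% of all genes. The value for 1110038B12Rik rested on CKO bleomycin mouse 2, and was 0.08 without that library. Without the 3 libraries whose sex-linked genes went against their labels it was -0.28, Snhg12 was at 0.15 ± 0.24 and the median of the 8 went from 0.28 to 0.07. CKO bleomycin then held mice 3 and 4 alone.

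Whether the bleomycin difference itself differed by genotype was given by the interaction term, which draws on the contrasts that chose the set. It was -0.62 ± 0.50 for 1110038B12Rik, -0.54 ± 0.42 for Snhg5 and -0.29 ± 0.32 for Gas5, and closest to 0 for Snhg17 at -0.01 ± 0.31. The 8 values had a median of -0.26 and edgeR adjusted p from 0.92 to 1.00. No host had an unadjusted p under 0.05, and no gene was called (0%). The size depended on single libraries. For 1110038B12Rik it was -1.37 ± 0.53 without the 3 libraries against their sex label, where CKO bleomycin mice 3 and 4 remain. It was -1.02 ± 0.46 without CKO bleomycin mouse 2. Without control PBS mouse 3 it was -0.96 ± 0.35 for Snhg5 and -0.57 ± 0.30 for Gas5. Without control bleomycin mouse 1 it was -0.27 ± 0.39 for Snhg5 and -0.02 ± 0.31 for Snhg1. edgeR called no host in any of these settings.

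The levels of the hosts were set beside the fibroblast marker score, the mean log2 CPM of the 13 fibroblast markers kept, over the 17 libraries. Pearson's r was 0.84 for 1110038B12Rik, 0.77 for Gas5, 0.75 for Snhg5, 0.73 for Snhg8, 0.70 for Snhg12, 0.58 for Snhg1, 0.44 for Snhg15 and 0.40 for Snhg17. With the macrophage marker score it ran from -0.83 (Snhg5) to -0.53 (Snhg17). Over all kept genes the central 90% of r with the fibroblast score lay between -0.73 and 0.84. The libraries share group, depth and culture, so these values describe the 17 libraries and carry no test.

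**Figure D4:**
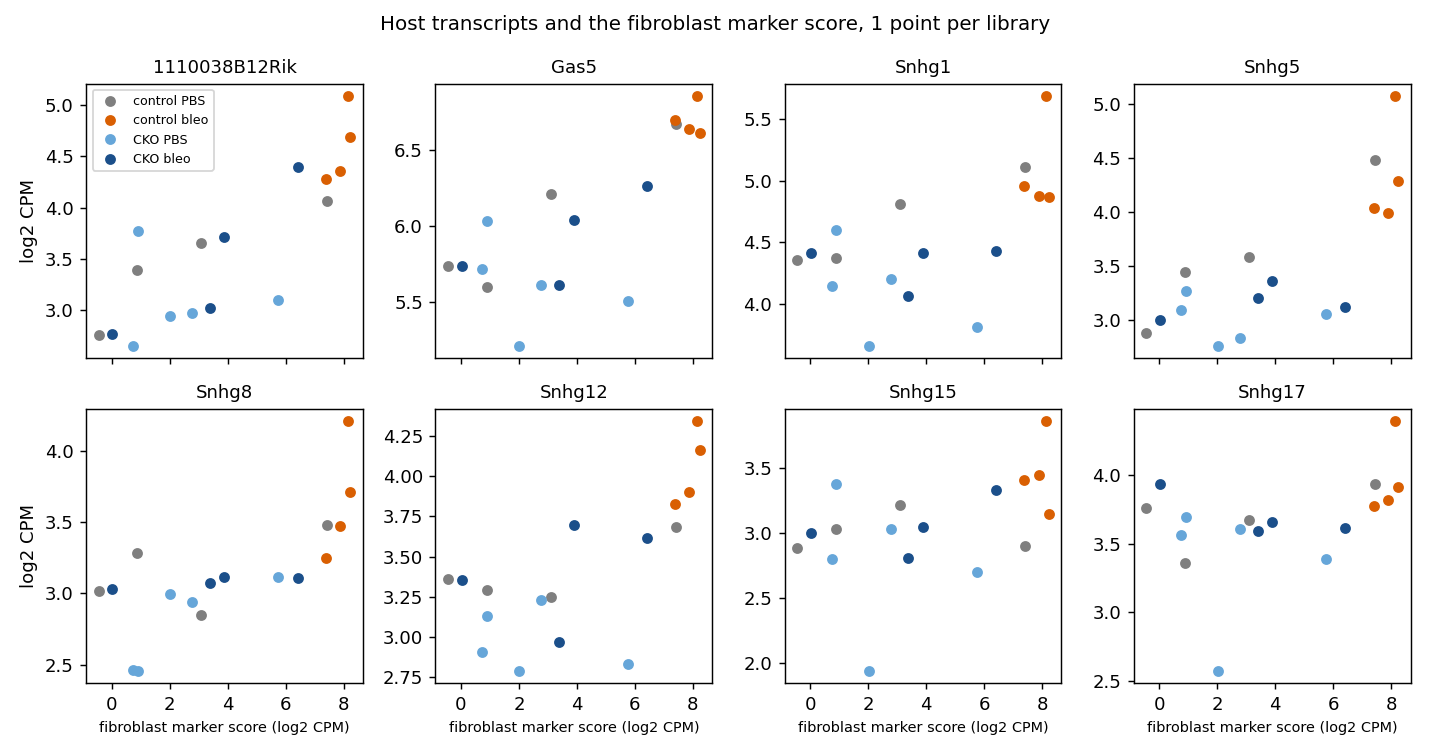
log2 CPM of each host against the fibroblast marker score, 1 point per library and coloured by group. The 4 control bleomycin libraries lie between 7.39 and 8.23 on the score, next to control PBS mouse 3 at 7.42, and the other groups spread down to -0.44.

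With the fibroblast score as a covariate the control bleomycin difference was 0.24 ± 0.26 for Gas5 and 0.27 ± 0.33 for Snhg5, while Snhg12 was at 0.50 ± 0.25. In CKO against control mice after bleomycin, Snhg5 moved to -0.78 ± 0.34 and Snhg1 to -0.65 ± 0.30. With the macrophage score instead, Snhg1 was at 0.13 ± 0.19 after bleomycin in control mice, where 1110038B12Rik was at 0.76 ± 0.33. In CKO against control mice after bleomycin this covariate left Snhg1 at -0.37 ± 0.21, Snhg17 at -0.07 ± 0.25 and 1110038B12Rik at -0.55 ± 0.35. Score and group overlap so far that the covariate cannot be told apart from the condition in control bleomycin. All 4 control bleomycin mice carried a number of series 12 (the first digits of the number) in their sample titles. So did 1 of 4 control PBS mice, 2 of 5 CKO PBS mice and 2 of 4 CKO bleomycin mice. What the number stands for is not given in the labels. With number series as a covariate 1110038B12Rik was at 0.60 ± 0.38 after bleomycin in control mice, and Gas5 at 0.42 ± 0.27, and 1110038B12Rik at -0.79 ± 0.33 in CKO against control mice after bleomycin.

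Over the 28 pairs of hosts r had a median of 0.79 and ranged from 0.41 to 0.93. No share over all genes was computed for these pairs. Against 1110038B12Rik r was 0.90 for Gas5, 0.86 for Snhg12, 0.84 for Snhg5, 0.81 for Snhg1, 0.72 for Snhg15, 0.71 for Snhg8 and 0.55 for Snhg17. The central range of r with 1110038B12Rik over all kept genes, taken as for the fibroblast score, was -0.78 to 0.81. Snhg15, Snhg8 and Snhg17 lay inside that range and Snhg1 at its upper edge, while Gas5, Snhg12 and Snhg5 lay above it. In the order of all kept genes by likeness to 1110038B12Rik, Gas5 stood at rank 70, Snhg12 at 201, Snhg5 at 302, Snhg1 at 497, Snhg15 at 1125, Snhg8 at 1159 and Snhg17 at 2009. Among the most alike genes were Tmem132a (r = 0.95), Ttc28 (0.95), Slc7a6 (0.94) and Csrp1 (0.93), all protein coding. Their own r with the fibroblast score ran from 0.82 to 0.90.

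The snoRNAs themselves were barely measured. Of the 32 hosted snoRNA genes, 21 were listed at exactly 1 count in all 17 libraries, including Snord52 and Gm25744 of 1110038B12Rik, and none passed the expression filter. The same constant value appeared in 76 of the 1507 snoRNA genes in the table (5.04%), and 989 were at 0 in all libraries. A value that is the same in every library holds no level, and the hosts' changes cannot be set against these snoRNAs. Only Snord22 exceeded 100 counts in any library among the 32.

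Snord22 was not highest where its host Snhg1 was. Snord22 was at 60 to 451 counts in control PBS, 108 to 235 in control bleomycin, 47 to 284 in CKO PBS and 109 to 414 in CKO bleomycin. Its mean was 2.48 ± 1.56 CPM in control PBS and 1.41 ± 0.38 CPM in control bleomycin, while Snhg1 had its highest mean in control bleomycin at 35.2 ± 10.8 CPM. Per 100 Snhg1 counts, Snord22 was at 3.79, 3.98, 4.57 and 3.80 in control bleomycin and at 17.7, 9.68, 8.00 and 9.92 in CKO bleomycin. All 4 CKO values lay above all 4 control values, and the PBS groups spread from 2.86 to 23.9. The ratio divides by Snhg1, which was lower in CKO bleomycin in the comparison that chose the set, so the split is partly built in. In CPM Snord22 overlapped between these groups, at 1.11 to 1.94 in control bleomycin and 1.34 to 3.78 in CKO bleomycin. The CKO bleomycin mean was 2.33 ± 1.03 CPM. No share over all genes was computed for the ratio. Snord22 lies in an intron of Snhg1, so unspliced host RNA and the snoRNA share reads there, and their parts were not tested. Snora44 in Snhg12 was at 3 to 75 counts and Snora9 in Snhg15 at 1 to 19, with overlapping groups.

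**Figure D5:**
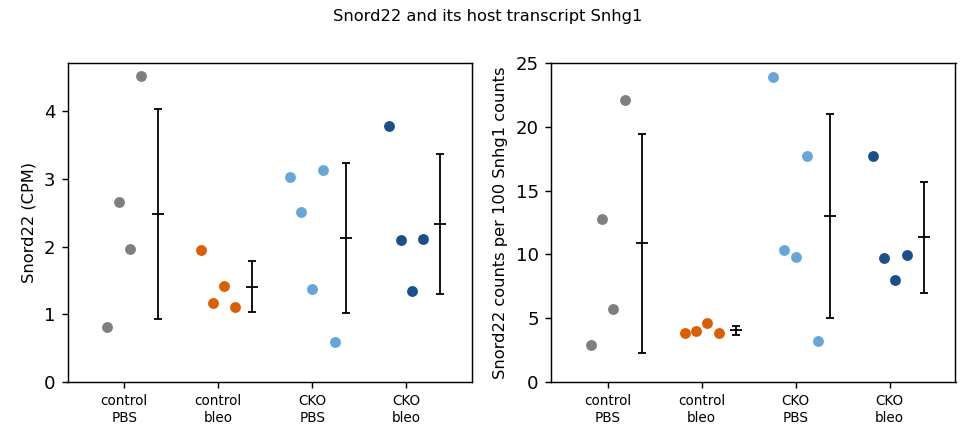
Snord22 by library and group, as CPM (left) and as counts per 100 counts of its host Snhg1 (right), with the group mean and SD beside the points. On the right the 4 control bleomycin libraries lie between 3.79 and 4.57 and the 4 CKO bleomycin libraries between 8.00 and 17.7. On the left these groups overlap.

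The rest of the snoRNA pathway was read in the 2 comparisons that chose the set, by gene lists. No gene of any list passed an adjusted p of 0.05 by edgeR. Over all kept genes 44.5% were above 0 after bleomycin in control mice (median -0.06). In CKO against control mice after bleomycin 49.3% were below 0 (median 0.01). The lists share some genes, such as Nop56, and both comparisons share the control bleomycin libraries, so the counts are not independent. Of 14 other noncoding hosts, 13 matched a row and 6 were kept. After bleomycin in control mice 5 of the 6 were above 0 (median 0.35). Rian, a host of an imprinted snoRNA cluster, was at 4.67 ± 1.92, Snhg18 at 1.54 ± 1.29 and Snhg6 at 0.42 ± 0.21, while Snhg20 was at -0.57 ± 0.30. In CKO against control mice after bleomycin 5 of 6 were below 0 (median -0.63). Snhg18 was at -2.75 ± 1.34, Rian at -2.51 ± 1.74, Snhg6 at -0.72 ± 0.21 and Snhg3 at -0.54 ± 0.25, and Snhg20 was at 0.59 ± 0.30. Rian and Snhg18 had their highest means in control bleomycin, at 92.8 and 18.6 CPM. The filter may thus have kept them through that group, and both comparisons use it.

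Protein-coding hosts had medians of the same signs and smaller size. All 40 were kept, 30 were above 0 after bleomycin in control mice (median 0.20), and 32 were below 0 in CKO against control mice after bleomycin (median -0.25). Eef1b2, a translation elongation factor subunit, was at 0.53 ± 0.20 and -0.56 ± 0.20 in these comparisons, and the ribosomal protein gene Rpl13a at 0.45 ± 0.19 and -0.56 ± 0.19. Eif4a2, a translation initiation helicase, was at -0.54 ± 0.20 in the first.

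Of 18 kept genes for snoRNP core and assembly proteins, 13 were above 0 in the first comparison (median 0.18) and 13 below 0 in the second (median -0.19). The core protein gene Nop56, itself a snoRNA host, was at 0.48 ± 0.26 and -0.61 ± 0.26. Shq1, an H/ACA assembly factor, went the other way at -0.89 ± 0.28 and 0.77 ± 0.28. Of 18 kept ribosome biogenesis and Pol I genes, 13 were above 0 in the first (median 0.21) and 14 below 0 in the second (median -0.18). Utp4 was at 0.56 ± 0.16 and -0.59 ± 0.16, and Utp15 at -0.35 ± 0.22 and 0.42 ± 0.22.

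Lists of factors that act on the host RNAs had medians nearer to 0. Of 22 kept nonsense-mediated decay genes, 13 were above 0 in the first comparison (median 0.08) and 16 below 0 in the second (median -0.13). Upf3a was at 0.40 ± 0.17 in the first and Nbas at -0.45 ± 0.18 in the second. Dhx34 went the other way, at -0.42 ± 0.30 in the first and 0.71 ± 0.30 in the second. The 15 TOP mRNA regulators had medians of -0.04 and 0.02, near those of all genes. One of them, Eif4ebp1, a translational repressor controlled by mTOR, was at 1.05 ± 0.33 and -1.14 ± 0.33. Its mean was 91.8 CPM in control bleomycin, 44.5 CPM in control PBS and 41.7 CPM in CKO bleomycin. Tsc1 had the opposite signs, at -0.27 ± 0.25 and 0.57 ± 0.25.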

How the data were processed

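Total RNA was sequenced as stranded 75-base paired reads from 17 mice. The authors trimmed reads with Cutadapt, aligned them to GRCm38 with HISAT2 (2.1.0) using the strand, ran StringTie for transcript estimates, and deposited whole-number counts per gene derived from coverage and read length, without normalization. The counts thus depend on how StringTie divided coverage between overlapping transcripts. Gas5 overlaps Zbtb37 on the other strand by 428 bases. Within Snhg17 a lincRNA entry named Gm23925 lies on the same strand over 132 bases, beside a separate snoRNA entry of that name. Every column of the table matched 1 mouse by its title.

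From these counts, 10481 of 55421 genes were kept, those above 10 unscaled CPM in 2 or more libraries. All 17 libraries entered a single edgeR 4.0.16 fit (quasi-likelihood, TMM, R 4.3.3), in which each group had its own mean, with Benjamini-Hochberg adjustment over the kept genes, at 0.05. Printed CPM use TMM library sizes. DESeq2 1.42.0 was an alternative. The authors' batch term could not be repeated, since the sources used here do not give the batch of each library. The marker scores are mean log2 CPM with a prior count of 2. The edgeR fit was tested on simulated counts with known changes.

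Gene positions and lengths are from GENCODE M21 (55240 of the identifiers in the table matched). Start sequences are from RefSeq and matched all 8 hosts. The named genes are the 8 hosts, the snoRNAs within them, the 5 genes most correlated with 1110038B12Rik, and from each list the 2 with the smallest unadjusted p in each direction, of which the text gives a part, and 1 gene under this rule is not reported here. The members and lists were chosen with earlier results of these data known. Marker lists of endothelial, epithelial, smooth muscle, mesothelial, lymphocyte and neutrophil genes were computed as well.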

Additional observations from a re-analysis of the deposited data

Results flagged for a closer look

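Of 32 combinations of host and group, 2 held a library far from the others of its group by Dixon's criterion, where chance flags about 1 in 20. Snhg1 was at 51.3 CPM in control bleomycin mouse 1, against 29.2 to 31.0 CPM in the other 3 mice of the group. This library also had the lowest macrophage marker score of all, at 4.10 log2 CPM. Without it the log2 fold change of Snhg1 for bleomycin in control mice was 0.23 ± 0.23, from 0.44 ± 0.24 with it. Snhg1 was at 16.7 CPM in CKO bleomycin mouse 3, against 21.3 to 21.6 CPM in the rest of the group.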

How the results depend on the processing

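No edgeR setting called a host in any comparison. DESeq2 called 1 host after bleomycin in control mice and 3 in CKO against control mice after bleomycin, and the same numbers with a covariate for the 2 sorted blocks of 8 and 9 columns in the table, an alternative chosen after seeing the data and not stated to be the sequencing runs. The median of the 8 moved from 0.56 to 0.29 (fibroblast score covariate) and 0.32 (macrophage score covariate) in the first comparison, and from -0.70 to -0.46, -0.43 and, without the 3 libraries against their sex label, -0.96 in the second. Without those libraries, which leaves mice 3 and 4 in CKO bleomycin, the bleomycin difference in CKO mice reversed for 1110038B12Rik (-0.28) and Gas5 (-0.0029). The interaction reversed for Snhg17 with the fibroblast (0.0029) and macrophage (0.16) scores and in number series 12 alone (0.092), for Snhg1 with the macrophage score (0.10) and for Snhg15 in series 12 alone (0.11). Leaving out each mouse, Snhg17 ranged from -0.18 to 0.11. The cause was not tested. Per kilobase of the longest transcript instead of all exons, levels moved by more than an SD for 5 hosts, among them Snhg15 from 6.33 to 12.7. Over all genes DESeq2 called 166 after bleomycin in control mice, 399 in CKO against control mice after bleomycin, 1 in each of the other two comparisons and 0 for the interaction, and with column blocks 231, 387, 0 (PBS), 1 (CKO mice) and 1, where edgeR called 0 in each. In series 12 alone edgeR called 4 genes for bleomycin in CKO mice. No paired analysis was possible because the replicate numbers are only names.

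The biological coefficient of variation over all genes was 0.557 in the edgeR fit.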

Other observations

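Some noncoding snoRNA hosts outside the 8 differed widely between groups, with wide errors. Rian, which spans an imprinted snoRNA cluster, had a mean of 92.8 CPM in control bleomycin, 3.63 in control PBS, 2.07 in CKO PBS and 16.2 in CKO bleomycin. Snhg18, named after its values were seen, had means of 18.6, 6.40, 2.01 and 2.75 CPM in the same order, with a log2 fold change of 1.54 ± 1.29 for bleomycin in control mice. Their r with the fibroblast marker score over the 17 libraries was 0.87 and 0.93. Snhg20 ran the other way, with a mean of 6.33 CPM in control bleomycin and 7.59 to 9.54 CPM in the other groups, and an r of -0.59. Group means ran from 16.2 to 20.5 CPM for Zfas1 and from 9.10 to 13.2 CPM for Snhg3.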
